A study of Mus musculus with 27 samples.

Results

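Cells take up glucose and split it by glycolysis with enzymes that exist as several isoenzymes, each with its own gene, and 10 such genes were followed here through 4 knockdowns (KDs) of transcriptional repressors and through induced differentiation of mouse erythroleukaemia (MEL) cells. They were the glucose transporter genes *Slc2a1* and *Slc2a3*, the hexokinase genes *Hk1* and *Hk2*, the glucose-6-phosphate isomerase gene *Gpi1*, the phosphofructokinase genes *Pfkm* and *Pfkp*, the pyruvate kinase gene *Pklr*, the bisphosphoglycerate mutase gene *Bpgm* and the lactate dehydrogenase gene *Ldha*. The genes were chosen by symbol. All 10 were found in each of the 5 RNA-Seq tables, among 17681 listed genes for *Cbfa2t3* KD, 18519 for *Irf2bp2* KD, 17067 for *Gfi1b* KD, 16465 for *Kdm1a* KD and 16527 for MEL induction, and all 10 passed the filter on low counts in each table.

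Glucose enters red cell precursors through facilitative transporters of the Slc2a family, among them those encoded by *Slc2a1* (GLUT1) and *Slc2a3* (GLUT3, a high-affinity form). Hexokinase traps the sugar as glucose-6-phosphate, phosphofructokinase commits it to glycolysis, pyruvate kinase makes ATP in the last step, and lactate dehydrogenase returns NADH to NAD so that the pathway can go on. Mature red cells lack mitochondria and live on this pathway, and they have features of their own: *Pklr*, whose erythroid promoter makes the red cell pyruvate kinase in place of the widespread form encoded by *Pkm*, and *Bpgm*, whose product makes 2,3-bisphosphoglycerate, the metabolite that lowers the oxygen affinity of haemoglobin.

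MEL cells (C88 clone) are a leukaemic line that resembles erythroid progenitors and matures partly when induced. The study depleted the co-repressors ETO2 (gene *Cbfa2t3*), IRF2BP2 and LSD1 (gene *Kdm1a*) with lentiviral short hairpin RNAs for 72 h, and the repressor GFI1B with small interfering RNAs. For LSD1, a known repressor, it concluded that its part in erythroid differentiation is in general an activating one. The aim of the study was to learn how ETO2 holds back late erythroid genes in progenitors. The study set beside these KDs MEL cells that were non-induced or induced for 96 h, with an inducing agent that the sources used here do not give. It also mapped IRF2BP2 binding by ChIP-Seq and set it beside ETO2 ChIP-Seq data that had been published before. The libraries were Eto2 WT (n = 2), Eto2 KD-sh2 (n = 2) and Eto2 KD-sh3 (n = 2), which are separate hairpins against *Cbfa2t3*, Irf2bp2 WT (n = 2) and Irf2bp2 KD-sh1 (n = 2), Gfi1b WT (n = 2) and Gfi1b KD (n = 2), Lsd1 WT (n = 1) and Lsd1 KD (n = 2), and MEL non-induced (n = 2) and MEL induced (n = 2). Libraries labelled WT are MEL cells that received a non-targeting RNA. The labels do not say that replicates were separate cultures, so p-values measure the spread between these libraries, although the study describes its replicates as biological.

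Between 44519414 and 57684583 reads were counted per library in the *Cbfa2t3*, *Irf2bp2* and *Kdm1a* tables, and between 9929311 and 19623105 in the *Gfi1b* and MEL induction tables. The targeted gene was lower in each KD library of 3 of the 4 KDs, most so in *Kdm1a* KD, from 151.6 to 16.89 and 16.34 CPM (counts scaled by library size and composition), and least in *Irf2bp2* KD, from 115.9 and 119.6 to 92.21 and 94.89 CPM. *Gfi1b* went against its label in 1 library. It stood at 122.2 and 144.9 CPM in the controls, at 76.34 CPM in KD replicate 2 and at 215.5 CPM in the library labelled *Gfi1b* KD replicate 1, which also held 922.1 CPM of the erythroid gene *Alas2* against 20.36 CPM or less in the other 3 libraries. The *Gfi1b* log2 fold changes and counts of calls are therefore given with and without the library labelled *Gfi1b* KD replicate 1. Erythroid markers were present in each table. Of those tested, 7 of 8 rose in MEL induction, 8 of 8 in *Irf2bp2* KD and 5 of 8 in *Cbfa2t3* KD, and 3 of 7 lay lower in *Kdm1a* KD. Megakaryocyte markers moved with the same comparisons, 6 of 6 rising in *Irf2bp2* KD, where their summed level went from between 374 and 430 CPM to between 816 and 857 CPM, 2 of 6 rising in *Cbfa2t3* KD, where it went from between 409 and 422 to between 492 and 603 CPM, and 2 rising and 1 falling of 6 in MEL induction, where it went from between 396 and 534 to between 1200 and 1330 CPM. The lymphoid and stromal lists moved too, at low levels. The summed level of the lymphoid markers listed (3 or 4 of 4 by table) went from between 13.1 and 13.7 to between 3.98 and 5.79 CPM in *Cbfa2t3* KD and from between 18.5 and 19.7 to between 8.77 and 9.1 CPM in *Irf2bp2* KD, with 1 of 2 tested falling in each, and from between 43.3 and 50.6 to between 17.4 and 30.4 CPM in MEL induction, where the 1 tested fell. In *Kdm1a* KD it went from 13.9 to between 19.2 and 21.8 CPM, with 1 of 2 past the fold limit. That of the stromal markers listed (4 or 5 of 5) went from between 22.4 and 23.6 to between 4.46 and 11.2 CPM in MEL induction, and from between 5.56 and 6.3 to between 2.79 and 3.05 CPM in *Irf2bp2* KD, with 1 gene falling in each, from between 6.59 and 8.57 to between 2.2 and 6.09 CPM in *Cbfa2t3* KD, where 0 of 3 were called by edgeR, and from 6.48 to between 21.4 and 24.6 CPM in *Kdm1a* KD, where 2 of 3 were past the fold limit. These sums were mostly *Ptprc* and *Pdgfrb*, respectively. The other lymphoid markers, *Cd3e*, *Cd79a* and *Il7r*, reached at most 1.02 CPM (*Cd79a*) in any library and the other stromal ones at most 1.07 CPM (*Col1a1*). In the *Gfi1b* table edgeR called 0 genes of these lists. The library labelled KD replicate 1 held a summed 2760 CPM of erythroid and 913 CPM of megakaryocyte markers, against 921 and 181 CPM in KD replicate 2 and between 885 and 979 and between 229 and 294 CPM in the controls, while the stromal sum was 23.8 CPM in that library, 44.4 CPM in KD replicate 2 and between 17.1 and 19.3 CPM in the controls. The part of these shifts in the results below was not tested. The summed level of the myeloid markers listed (2 to 7 by table of a list of 8 that holds *Mpo* and *Elane*) was below 1 CPM in each library, though in *Kdm1a* KD it went from 0.388 to between 0.919 and 0.977 CPM, with the 1 gene tested past the fold limit. In bulk libraries, fewer cells of a type and less RNA per cell cannot be told apart.

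MEL induction moved most of the 10 genes down and *Bpgm* up. To be called, a gene needed an adjusted p no higher than 0.05 in edgeR's quasi-likelihood test (Benjamini-Hochberg, over all genes of its table) and a log2 fold change of at least 0.5 in size. By that rule 7 members fell and 1 rose in MEL induction, in a comparison that called 27.2% of all genes tested, 14.8% as lower and 12.4% as higher, and the median log2 fold change of the members was -1.18 against -0.02 for all genes. In *Irf2bp2* KD 3 members fell and 1 rose, against 22.5% of all genes called, 12.5% lower and 10.1% higher. In *Cbfa2t3* KD 4 members rose and 1 fell, against 5.74% of all genes called, 2.99% higher and 2.75% lower. *Kdm1a* KD has a single control library and no test, and a gene was counted there when both KD libraries lay at least 0.5 log2 units on the same side of the control. By that count 2 members were lower, against 22.9% of all genes past the limit, 9.8% lower and 13.1% higher. In *Gfi1b* KD edgeR called 0 members and 0% of all genes, although 784 genes and 1 member, *Pfkp*, had an unadjusted p under 0.05, and DESeq2 called 47 genes and 0 members. Without the library labelled *Gfi1b* KD replicate 1, edgeR called 3.48% of all genes and again 0 members, 1710 genes and 1 member, *Slc2a3*, had an unadjusted p under 0.05, and DESeq2 called 82 genes and 0 members.

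**Figure D1:**
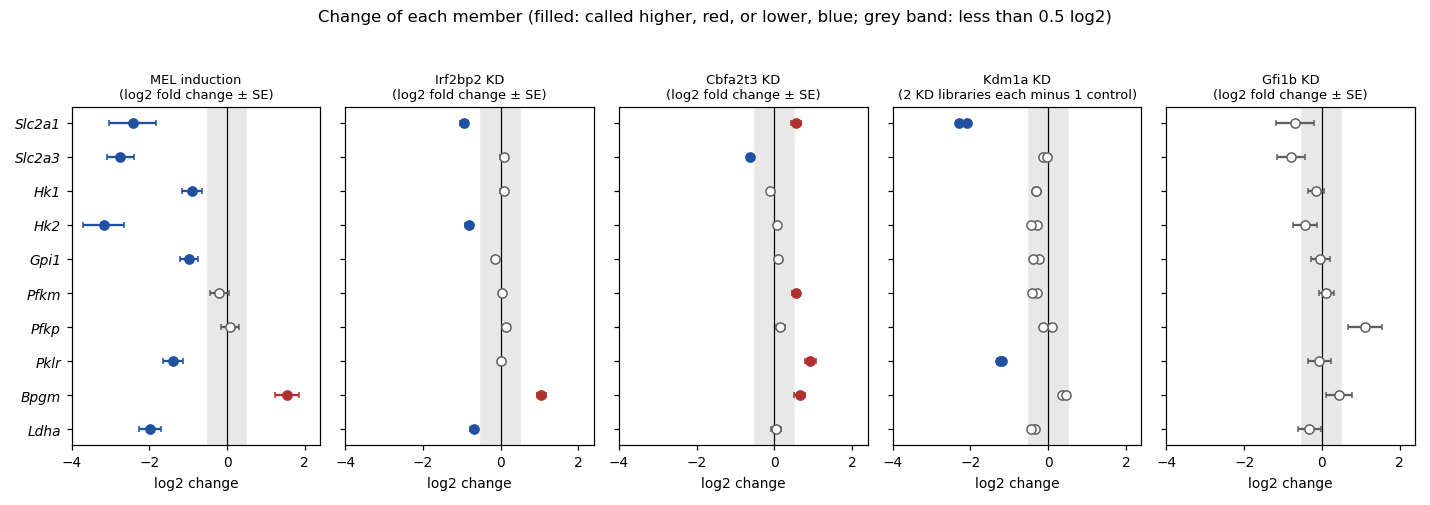
Log2 change of each gene in the 5 comparisons. For 4 of them the point is the edgeR log2 fold change and the bar its standard error. For *Kdm1a* KD each of the 2 KD libraries is drawn as its difference from the 1 control, and colour there marks genes past the fold limit in both, with no test. *Bpgm* lies right of 0 in each panel, at 0.365 and 0.465 in *Kdm1a* KD and up to 1.54 in MEL induction. The *Gfi1b* panel includes the library labelled KD replicate 1, without which *Bpgm* was at -0.02. *Slc2a1* lies left of 0 in each panel but that of *Cbfa2t3* KD.

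*Bpgm* was the only member with a positive change in 5 of 5 comparisons, called as a rise in 3 of them, though its value in *Gfi1b* KD was -0.02 without the library labelled KD replicate 1. *Slc2a1* and *Pklr* moved in opposite directions in different comparisons: both rose in *Cbfa2t3* KD and both fell in MEL induction and were lower in *Kdm1a* KD. *Pfkp* was called in none of the 5. Per transcript length (the authors' RPKM, reads scaled by transcript length and library size), *Ldha* was the highest member and *Bpgm* the lowest in each group of control libraries, at 794 and 9.75 RPKM in the *Cbfa2t3* controls. Between them stood, in those controls, *Hk1* at 243, *Gpi1* at 145, *Pklr* at 98.4, *Slc2a3* at 72.3, *Pfkm* at 68.6, *Pfkp* at 35, *Hk2* at 27.5 and *Slc2a1* at 20.4 RPKM, with no overlap between neighbours in this order (n = 2 each). In the *Gfi1b* and non-induced MEL controls several neighbours overlapped, among them *Slc2a1*, *Hk2* and *Pfkm* at 70.5, 66.4 and 61.2 RPKM in non-induced MEL cells.

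**Figure D2:**
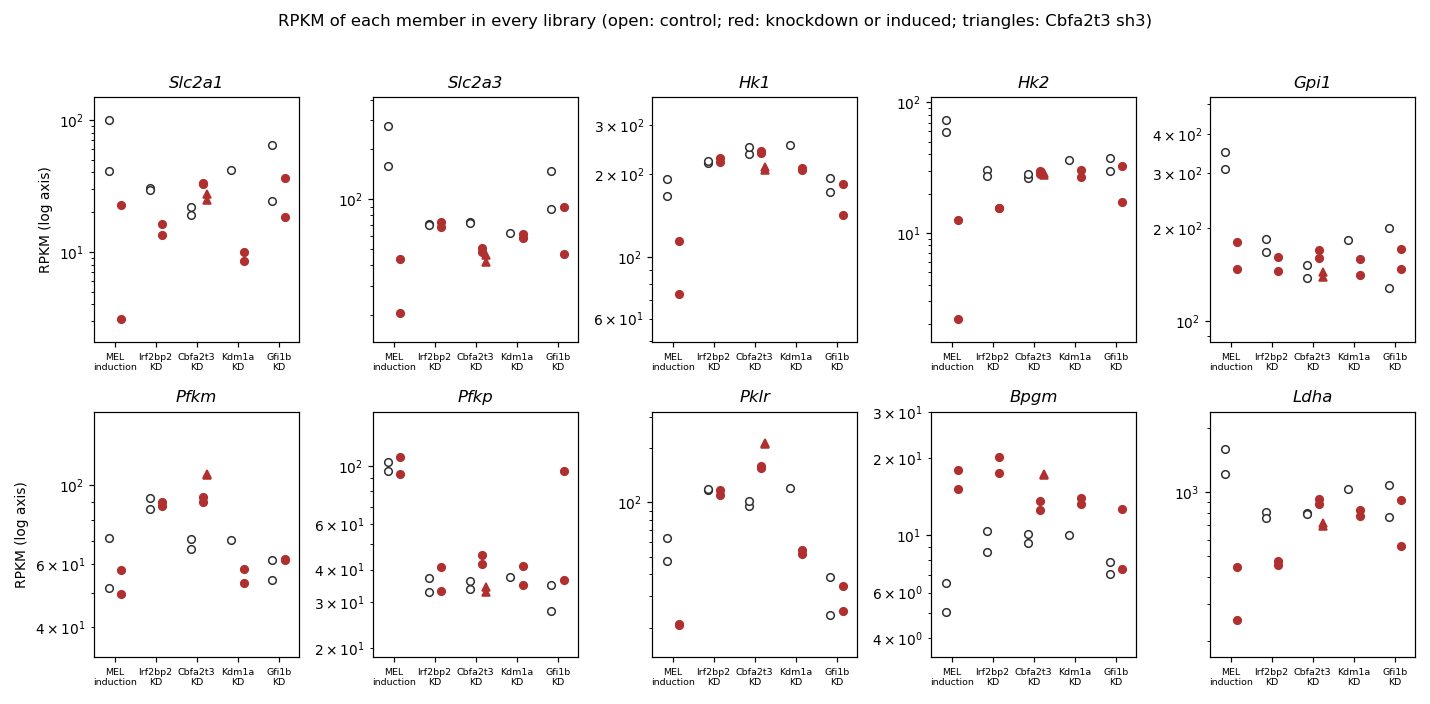
RPKM of each gene in each of the 21 libraries, on a log axis of its own for every gene. Open points are control or non-induced libraries, filled points KD or induced ones, and triangles the sh3 hairpin of *Cbfa2t3* KD. The controls of the 5 tables, which were normalized separately, ranged from 19 to 99.7 RPKM for *Slc2a1* and from 23.8 to 121 RPKM for *Pklr*, but from 166 to 254 RPKM for *Hk1*. The highest control was a non-induced MEL library for *Slc2a1*, *Slc2a3*, *Hk2*, *Gpi1*, *Pfkp* and *Ldha*. For *Hk1*, *Pfkm* and *Bpgm* such a library was the lowest.

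The list of ETO2 and IRF2BP2 binding sites, called against IgG with 1 ChIP library for IRF2BP2 and the published data for ETO2, held 13229 sites in the mm9 genome, of which 1760 were read here as ETO2 only, 2730 as bound by both and 8739 as IRF2BP2 only. Assigned to the single nearest gene within 1 Mb, at least 1 site fell to 9 of the 10 members, with *Gpi1* the exception, against 45.2% of 10901 protein-coding genes of the mm9 annotation, those that passed the count filter of the *Cbfa2t3* table. At least 1 site bound by both fell to 7 members, *Slc2a1*, *Slc2a3*, *Hk1*, *Hk2*, *Pfkm*, *Pklr* and *Bpgm*, against 14.3% of those genes. The 9 members together had 31 sites, 6 ETO2 only, 8 both and 17 IRF2BP2 only. The windows of 201 bases around the site centres were searched on both strands for AGATAA, which factors of the GATA family bind, and for the composite E-box/GATA motif of the LDB1 complex with a spacer of 6 to 8 bases, whose second part can overlap it. The shorter motif was present in 15 of the 31 windows, against 34.5% of all windows. The composite motif was present in 5 of 6 ETO2-only windows, 6 of 8 shared windows and 0 of 17 IRF2BP2-only windows, against 33.9%, 32.7% and 6.29% of all windows of these classes.

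**Figure D3:**
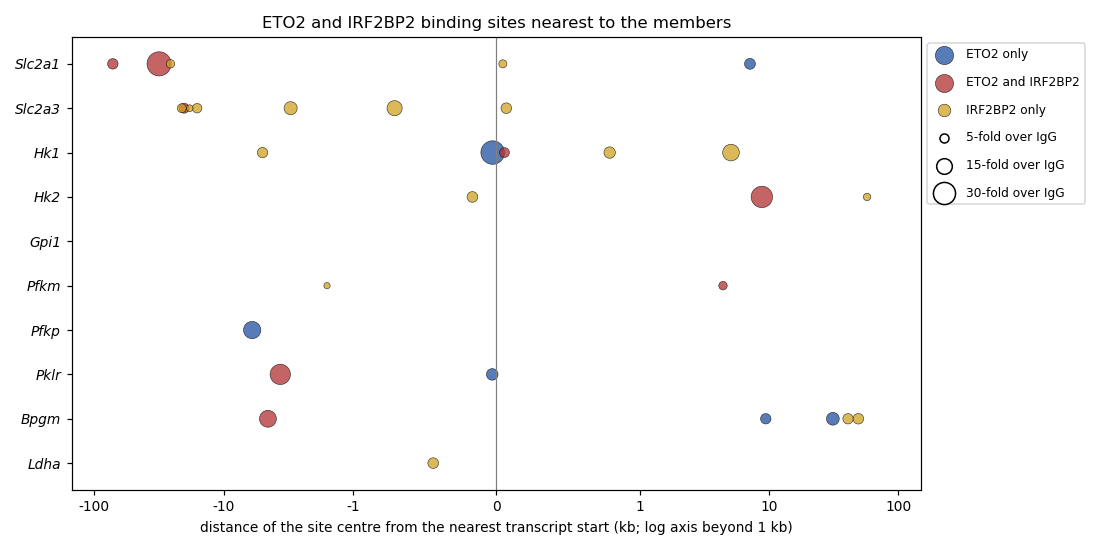
ETO2 and IRF2BP2 sites nearest to each gene by distance of the site centre from the closest transcript start, in kb, negative upstream and on a log axis beyond 1 kb. Colour marks the class of the site and area its fold enrichment over IgG. *Slc2a3* has 7 sites, the most of the 10 genes, *Gpi1* none, and the highest listed fold is 35.7, at the shared site 31.6 kb upstream of *Slc2a1*. The fold of a shared site is not assigned to either factor.

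Among the transporters, *Slc2a1* (chr4:118781316-118809935, plus strand, mm9) was called in 3 of the 4 tested comparisons, in both directions, and lay past the fold limit in *Kdm1a* KD, which has no test. Its site with the highest listed fold over IgG, chr4:118749440-118750676, lay upstream of the gene, was bound by both factors and held a composite motif. The listed fold of 35.7 is not assigned to either factor. An IRF2BP2-only site of 4-fold lay over an exon, 45 bp from a transcript start. The window at the centre of the upstream site (chr4:118749664-118749864, mm9, plus strand) is shown because that site has the highest listed fold of any member, with the composite motif in capitals:
*Slc2a1* upstream site: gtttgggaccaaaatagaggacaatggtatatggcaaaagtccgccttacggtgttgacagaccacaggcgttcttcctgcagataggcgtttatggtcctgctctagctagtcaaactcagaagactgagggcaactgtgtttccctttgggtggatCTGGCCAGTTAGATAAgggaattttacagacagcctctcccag
The promoter is shown, as 250 bases up to the transcript start (RefSeq, GRCm38.p6, matching mm9 chr4:118781100-118781349, plus strand), because the gene belongs with *Hk2* and *Ldha* to the members that fell in *Irf2bp2* KD. Capitals mark ACGTG, the core of the hypoxia response element, on either strand:
*Slc2a1* promoter: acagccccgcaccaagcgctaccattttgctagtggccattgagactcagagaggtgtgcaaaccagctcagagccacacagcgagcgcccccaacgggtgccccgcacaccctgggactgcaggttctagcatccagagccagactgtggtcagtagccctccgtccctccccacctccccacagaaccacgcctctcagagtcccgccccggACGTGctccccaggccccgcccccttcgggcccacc
ACGTG was found in 4 of the 9 members with a promoter entry, *Slc2a1*, *Hk2*, *Pfkm* and *Ldha*, and in 16.6% of 32851 promoters of this length or 18.5% of 27025 genes.

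In MEL induction *Slc2a1* went from 249.1 and 108.2 CPM in the non-induced libraries to 58.04 and 8.219 CPM in the induced libraries. Both induced libraries lay below both non-induced ones, but the libraries of each state lay far apart. The log2 fold change was -2.43 ± 0.609 (SE, edgeR adjusted p = 0.0103), and the call was lost without non-induced replicate 1 (adjusted p = 0.154) and with DESeq2 (adjusted p = 0.161). The value rested strongly on single libraries, at -4.45 without induced replicate 1, -1.61 without induced replicate 2 and -1.72 without non-induced replicate 1. In *Irf2bp2* KD the gene went from 76.95 and 73.74 CPM to 35.13 and 42.91 CPM, a 1.93-fold fall with no overlap (log2 -0.95 ± 0.096, edgeR adjusted p = 5.45e-07). In *Kdm1a* KD the control held 107.6 CPM and the KD libraries 25.41 and 21.92 CPM of *Slc2a1*. Those differences, -2.08 and -2.29 log2 units or 4.55-fold on average, were the largest of any member in *Kdm1a* KD.

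In *Cbfa2t3* KD *Slc2a1* moved the other way. It stood at 48.49 and 55.58 CPM in the controls, 84.39 and 85.57 CPM with sh2 and 63.58 and 70.31 CPM with sh3, so that all 4 KD libraries lay above both controls. The rise over both hairpins was 1.46-fold (log2 0.54 ± 0.128, edgeR adjusted p = 0.0268), and it was larger with sh2 than with sh3 although sh3 left less *Cbfa2t3* (123 and 145.3 CPM, against 202 and 243.5 CPM with sh2 and 400.2 and 427.1 CPM in the controls). With sh3 alone the log2 fold change was 0.36, under the limit, and the call was lost. The call was lost when either control library was left out (edgeR adjusted p = 0.279 without control replicate 1 and 0.112 without control replicate 2). In the *Gfi1b* table the groups overlapped, at 61.93 and 164.6 CPM in the controls, 92.12 CPM in KD replicate 2 and 47.72 CPM in the library labelled KD replicate 1.

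*Slc2a3* (chr6:122677827-122751658, minus strand, mm9), the transporter with the higher level, had 6 IRF2BP2-only sites and 1 shared site. The highest listed fold among them was 14, at an IRF2BP2-only site of *Slc2a3* 709 bp from a transcript start. It fell in MEL induction from 1066 and 637.6 CPM to 170.2 and 83.33 CPM, 6.72-fold and without overlap (log2 -2.75 ± 0.35, edgeR adjusted p = 0.00015). With a library left out the log2 fold change ran from -3.36 (without induced replicate 1) to -2.31. In *Cbfa2t3* KD *Slc2a3* fell from 288 and 280.8 CPM to 190.1 and 198.9 CPM with sh2 and to 165.1 and 180.9 CPM with sh3. All 4 KD libraries lay below both controls (log2 -0.63 ± 0.074, edgeR adjusted p = 0.00114), and this was the single member call of *Cbfa2t3* KD that held with either control library left out. *Slc2a3* did not pass the test in *Irf2bp2* KD, with 275.4 and 269.1 CPM in the controls and 274 and 299.6 CPM in the KD, and was 247.5 CPM in the *Kdm1a* control and 227.5 and 243.9 CPM in the KD.

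The ratio of the transporters per length lay on different sides of the controls in different KDs. *Slc2a3* RPKM over *Slc2a1* RPKM went from 3.55 in the controls to 1.58 in *Cbfa2t3* KD, from 2.35 to 4.78 in *Irf2bp2* KD and from 1.49 to 6.46 in *Kdm1a* KD. In *Kdm1a* KD the KD libraries lay above the single control, and in *Cbfa2t3* and *Irf2bp2* KD the groups did not overlap. They overlapped in MEL induction, where the mean ratio went from 3.26 to 3.52 but the induced libraries stood at 1.9 and 6.5, and in the *Gfi1b* table, where the controls stood at 3.62 and 2.3, KD replicate 2 at 2.47 and the library labelled KD replicate 1 at 2.54. Left out singly, libraries turned the direction in both: the log2 change of 0.11 in MEL induction was -0.12 without non-induced replicate 1 and -0.78 without induced replicate 2, and that of -0.21 in the *Gfi1b* table was 0.12 without control replicate 1. An exact two-sided permutation test over libraries cannot go below p = 0.333 with 2 against 2 libraries and 0.0667 with 4 against 2, and the values were 0.0667 for *Cbfa2t3* KD and 0.333 for *Irf2bp2* KD. Over the 16 isoenzyme ratios tested the lowest adjusted p was 0.532. With these numbers of libraries no ratio could have reached 0.05.

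**Figure D4:**
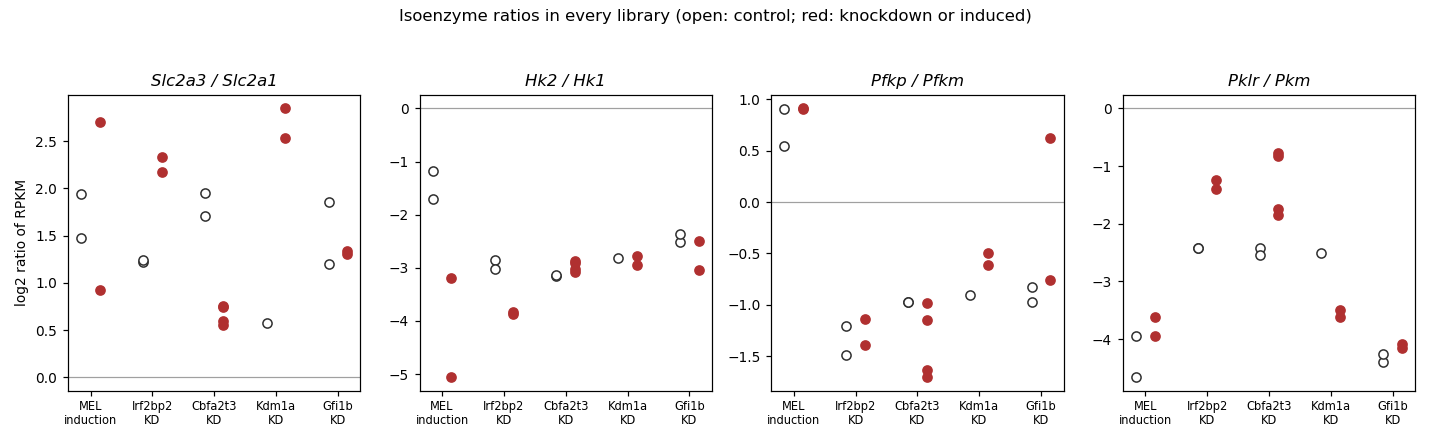
Log2 ratio of RPKM for 4 isoenzyme pairs in each library (open: control or non-induced, filled: KD or induced; grey line: equal RPKM). The *Slc2a3*/*Slc2a1* ratio lies below its controls in *Cbfa2t3* KD and above them in *Irf2bp2* and *Kdm1a* KD, and the mean *Hk2*/*Hk1* ratio goes from 0.369 to 0.0572 in MEL induction, where the induced libraries lie apart at 0.109 and 0.03.

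Of the hexokinases, *Hk2* fell in 2 comparisons and *Hk1* in 1. *Hk2* (chr6:82675019-82724448, minus strand, mm9) encodes the inducible hexokinase of growing and tumour cells, and *Hk1* (chr10:61731603-61842656, minus strand) the constitutive one, which red cells use. *Hk2* went from 394.8 and 331.8 CPM to 67.85 and 12.33 CPM in MEL induction, the largest fall of any member at 9.06-fold (log2 -3.18 ± 0.531, edgeR adjusted p = 0.000959). The size rested on the induced libraries, with -4.89 without induced replicate 1 and -2.41 without induced replicate 2. In *Irf2bp2* KD it went from 164.3 and 148 CPM to 87.09 and 88.71 CPM, 1.78-fold lower (log2 -0.83 ± 0.084, edgeR adjusted p = 5.96e-07). In both comparisons all treated libraries lay below all controls. *Hk2* stayed between 145.4 and 165 CPM in all 6 libraries of *Cbfa2t3* KD (edgeR adjusted p = 0.501) and was 199 CPM in the *Kdm1a* control against 164.4 and 146.8 CPM.

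A site bound by both factors lay in an intron of *Hk2* (chr6:82713839-82714510), 8.77 kb from a transcript start. Its listed fold of 28 is not assigned to either factor. An IRF2BP2-only site of 7-fold lay 167 bp from another start. The window at the centre of the shared site (chr6:82714111-82714311, mm9, plus strand) is shown as the shared site of high listed fold that held neither motif:
*Hk2* intron site: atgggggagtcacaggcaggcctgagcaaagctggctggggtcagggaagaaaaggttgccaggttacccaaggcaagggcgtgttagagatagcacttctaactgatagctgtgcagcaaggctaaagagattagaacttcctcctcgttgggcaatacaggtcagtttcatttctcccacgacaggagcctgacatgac
The *Hk2* promoter (RefSeq, GRCm38.p6, matching mm9 chr6:82724449-82724698, minus strand) held ACGTG, in capitals, at 2 places, both read on the other strand:
*Hk2* promoter: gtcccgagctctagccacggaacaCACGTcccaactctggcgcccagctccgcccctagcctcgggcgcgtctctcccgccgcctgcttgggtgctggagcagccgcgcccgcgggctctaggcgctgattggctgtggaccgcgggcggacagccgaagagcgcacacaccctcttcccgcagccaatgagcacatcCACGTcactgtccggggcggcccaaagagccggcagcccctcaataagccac

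*Hk1* went from 613.3 and 740.3 CPM to 432 and 293.8 CPM in MEL induction (log2 -0.90 ± 0.258, edgeR adjusted p = 0.0199). The groups did not overlap, but the call was lost without non-induced replicate 2 (adjusted p = 0.11) and without induced replicate 2 (adjusted p = 0.263). *Hk1* did not reach the fold limit in any KD, and its KD libraries stayed between 542.8 and 918.4 CPM. Its 5 sites included an ETO2-only site of 34-fold, 26 bp from a transcript start. *Hk1* made up 89.8% of the summed RPKM of *Hk1*, *Hk2*, *Hk3* and *Hkdc1* in the *Cbfa2t3* controls, 72.8% in non-induced and 93.6% in induced MEL cells, where the share of *Hk2* went from 30.7% and 23.5% in the non-induced to 9.8% and 2.85% in the induced libraries. The log2 change of the *Hk2*/*Hk1* ratio in MEL induction was -2.69, but -3.62 without induced replicate 1 and -1.76 without induced replicate 2. In *Irf2bp2* KD the share of *Hk2* went from 11.6% to 6.49%. *Hk3*, another hexokinase gene, had at most 1 count in the libraries that list it.

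*Gpi1* (chr7:34987141-35015308, minus strand, mm9), which turns glucose-6-phosphate into fructose-6-phosphate, fell in MEL induction from 986.1 and 907.5 CPM to 422.2 and 537.6 CPM (log2 -0.98 ± 0.241, edgeR adjusted p = 0.0093). The groups did not overlap, and the call was lost without induced replicate 1 (adjusted p = 0.0901). In the KDs *Gpi1* was not called. Its values ran from 477.8 and 522.7 CPM to 426.9 and 481.8 CPM in *Irf2bp2* KD and from 530.7 CPM to 450 and 405.5 CPM in *Kdm1a* KD.

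The phosphofructokinase genes had the smallest changes of all members in MEL induction. *Pfkm* (chr15:97923020-97962878, plus strand, mm9), the muscle-type subunit, which red cells also use, stood at 141.7 and 206.7 CPM in non-induced and 160.9 and 143.2 CPM in induced cells. *Pfkp* (chr13:6579014-6648023, minus strand), the platelet-type subunit, stood at 364.3 and 402.2 CPM and at 423.5 and 379.9 CPM. The groups overlapped for both genes (edgeR adjusted p = 0.605 and 0.86), while *Pfkl*, the liver-type subunit, had a log2 fold change of -1.10 ± 0.322 (edgeR adjusted p = 0.0221). The summed RPKM of the 3 genes went from 275 to 207, and within it the share of *Pfkl* went from 41.5% to 24.5% and that of *Pfkp* from 36.2% to 49.2%.

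In *Cbfa2t3* KD *Pfkm* rose from 184.6 and 196.4 CPM to 251.6 and 259.1 CPM with sh2 and to 300.4 and 298.5 CPM with sh3. All KD libraries lay above both controls (log2 0.54 ± 0.087, edgeR adjusted p = 0.00516), and the call was lost without control replicate 1 (adjusted p = 0.0983) or control replicate 2 (adjusted p = 0.0512), or with sh2 alone, where the log2 fold change was 0.42. *Pfkp* stood at 128.6 and 137.2 CPM in the controls, 172.7 and 161.1 CPM with sh2 and 125.8 and 131.4 CPM with sh3, so both sh2 libraries lay above the controls and those of sh3 overlapped them. Its single site, ETO2 only and 18.3-fold, lay in an intron. In *Irf2bp2* KD *Pfkm* lay between 238.3 and 254.3 CPM and *Pfkp* between 122.5 and 157.3 CPM in the 4 libraries, and neither passed the test. In *Kdm1a* KD *Pfkm* was 198 CPM in the control and 160.8 and 148.5 CPM in the KD, and *Pfkp* 144.6 CPM and 154.4 and 131.6 CPM. In the *Gfi1b* table *Pfkp* stood at 106 and 130.7 CPM in the controls and at 138.3 CPM in KD replicate 2, but at 373.5 CPM in the library labelled KD replicate 1. The log2 fold change was 1.11 ± 0.434 with that library (edgeR adjusted p = 0.699) and 0.23 without it (adjusted p = 0.563), so the value rested on 1 library, the one with the high sums of erythroid and megakaryocyte markers.

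*Pklr* (chr3:88940064-88950706, plus strand, mm9) was the member that rose most in *Cbfa2t3* KD. It went from 263 and 282 CPM in the controls to 431.5 and 445.2 CPM with sh2 and to 594 and 595.7 CPM with sh3. All KD libraries lay above both controls, by 1.90-fold on average (log2 0.92 ± 0.145, edgeR adjusted p = 0.00459), although the call was lost without control replicate 1 (adjusted p = 0.0856) or control replicate 2 (adjusted p = 0.0524). sh3 exceeded sh2 by 0.44 log2 units (edgeR adjusted p = 0.000725). A site bound by both factors lay 3.64 kb upstream (chr3:88936169-88937279), with a listed fold of 25.2 that is not assigned to either factor. An ETO2-only site of 8.2-fold lay 29 bp from the start. The window at the centre of the upstream site (chr3:88936321-88936521, mm9, plus strand) is shown for the member with the largest rise in *Cbfa2t3* KD. Capitals mark the composite motif, which lies on the other strand:
*Pklr* upstream site: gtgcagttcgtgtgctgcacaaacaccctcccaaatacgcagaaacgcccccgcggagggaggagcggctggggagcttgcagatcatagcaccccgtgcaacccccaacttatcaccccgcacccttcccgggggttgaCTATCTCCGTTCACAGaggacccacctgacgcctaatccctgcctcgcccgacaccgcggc

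Elsewhere *Pklr* was lower or did not pass the test. In *Kdm1a* KD it stood at 338.9 CPM in the control and 148.7 and 143.4 CPM in the KD libraries, 2.32-fold lower on average. In MEL induction it fell from 128.2 and 179 CPM to 57.97 and 59.45 CPM (log2 -1.39 ± 0.253, edgeR adjusted p = 0.00172). In MEL induction the groups did not overlap, and in *Kdm1a* KD the KD libraries lay below the single control. In *Irf2bp2* KD, with 321.7 and 323.1 CPM in the controls and 330.1 and 316.7 CPM in the KD, the log2 fold change was 0.004 ± 0.084 (edgeR adjusted p = 0.971).

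The ratio of *Pklr* to *Pkm*, the other pyruvate kinase gene, was higher in all KD libraries than in the controls in the *Cbfa2t3*, *Irf2bp2* and *Gfi1b* tables. It went from 0.179 to 0.406 in *Cbfa2t3* KD, where *Pklr* rose and *Pkm* did not pass the test over both hairpins (log2 -0.25 ± 0.175, edgeR adjusted p = 0.416). The hairpins differed, with ratios of 0.277 and 0.299 with sh2 and 0.583 and 0.562 with sh3. *Pkm* stood at 508 and 596.2 RPKM in the controls, at 558 and 533.7 RPKM with sh2 and at 364.4 and 380.1 RPKM with sh3, where it fell (log2 -0.56 ± 0.077 with sh3 alone, edgeR adjusted p = 0.000357). The ratio went from 0.187 to 0.401 in *Irf2bp2* KD, where *Pkm* fell (log2 -1.08 ± 0.092, edgeR adjusted p = 6.76e-08) and *Pklr* did not pass the test. *Pklr* made up 15.1% of pyruvate kinase RPKM in the *Cbfa2t3* controls and 29.4% in the KD, and 15.8% and 28.6% in *Irf2bp2* KD. In the *Gfi1b* table the ratio stood at 0.0472 and 0.0525 in the controls, 0.0565 in KD replicate 2 and 0.0592 in the library labelled KD replicate 1. In *Kdm1a* KD the ratio went the other way, from 0.176 to 0.0848. In MEL induction *Pkm* fell together with *Pklr* (from 1090 to 290 RPKM), and the ratio overlapped between groups, at 0.0506 and 0.0727 on average. The exact permutation p was 0.133 for *Cbfa2t3* KD and 0.333 for *Irf2bp2* and *Gfi1b* KD.

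*Bpgm* (chr6:34426207-34455613, plus strand, mm9) rose in the 3 comparisons that called it. In MEL induction it went from 10.15 and 13.78 CPM to 31.02 and 38.19 CPM, 2.90-fold (log2 1.54 ± 0.311, edgeR adjusted p = 0.0032). In *Irf2bp2* KD it went from 17.65 and 20.99 CPM to 36.66 and 43.09 CPM, 2.06-fold (log2 1.05 ± 0.108, edgeR adjusted p = 7.19e-07). In *Cbfa2t3* KD it went from 20.78 and 19.27 CPM to 28.15 and 25.86 CPM with sh2 and to 35.71 and 35.53 CPM with sh3 (log2 0.65 ± 0.142, edgeR adjusted p = 0.0207). Treated and control libraries did not overlap in any of the 3, and in *Cbfa2t3* KD the call was lost without control replicate 1 (adjusted p = 0.143) or control replicate 2 (adjusted p = 0.19), and with sh2 alone (log2 0.43). In *Kdm1a* KD *Bpgm* stood at 20.94 CPM in the control and 26.98 and 28.92 CPM in the KD, differences of 0.37 and 0.47 log2 units, both under the limit. In the *Gfi1b* table it stood at 16.24 and 14.5 CPM in the controls, 15.18 CPM in KD replicate 2 and 26.28 CPM in the library labelled KD replicate 1, and the log2 fold change of 0.44 became -0.02 without that library.

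The *Bpgm* locus held 5 sites, 2 ETO2 only, 1 bound by both and 2 IRF2BP2 only. The shared site (chr6:34421432-34422484) had the highest listed fold, 17.5, not assigned to either factor, and lay 4.54 kb upstream. Its central window (chr6:34421569-34421769, mm9, plus strand) is shown for the one member that rose in 3 comparisons. The capitals mark the composite motif, which lies on the other strand and includes AGATAA:
*Bpgm* upstream site: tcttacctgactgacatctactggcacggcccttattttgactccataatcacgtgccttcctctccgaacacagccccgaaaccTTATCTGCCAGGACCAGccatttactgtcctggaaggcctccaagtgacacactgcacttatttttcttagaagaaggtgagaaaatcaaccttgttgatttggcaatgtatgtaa

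*Ldha* (chr7:54096845-54110997, plus strand, mm9) fell in MEL induction from 2394 and 1899 CPM to 691.5 and 395.1 CPM, 3.95-fold (log2 -1.98 ± 0.291, edgeR adjusted p = 0.000408), and in *Irf2bp2* KD from 1240 and 1160 CPM to 756.9 and 731.1 CPM, 1.61-fold (log2 -0.69 ± 0.092, edgeR adjusted p = 1.14e-05). Neither comparison had overlapping groups. *Ldha* was 1622 CPM in the *Kdm1a* control and 1273 and 1199 CPM in the KD, which did not reach the limit. In *Cbfa2t3* KD the hairpins lay on different sides of the controls (1232 and 1218 CPM), at 1461 and 1365 CPM with sh2 and 1124 and 1080 CPM with sh3. *Ldhb*, the other subunit gene of somatic cells, had 3 counts or fewer in each of the 17 libraries that list it, so no ratio was formed. The single site at *Ldha* was IRF2BP2 only, 7-fold, in an intron 440 bp from a transcript start (chr7:54100501-54100988). The promoter next to it (RefSeq, GRCm38.p6, matching mm9 chr7:54100924-54101173, plus strand) is shown as the member promoter with the most ACGTG matches, in capitals. There were 5 matches at 3 places, since CACGTG reads the same on both strands:
*Ldha* promoter: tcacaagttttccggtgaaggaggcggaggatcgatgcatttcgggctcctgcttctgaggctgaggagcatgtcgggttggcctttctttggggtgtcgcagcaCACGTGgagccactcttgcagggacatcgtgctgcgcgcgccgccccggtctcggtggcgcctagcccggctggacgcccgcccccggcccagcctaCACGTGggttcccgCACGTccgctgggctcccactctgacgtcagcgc

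Across the *Gfi1b* table the members' log2 fold changes ran from -0.79 (*Slc2a3*) to 1.11 (*Pfkp*), and without the library labelled KD replicate 1 from -0.41 (*Slc2a3*, edgeR adjusted p = 0.123) to 0.23 (*Pfkp*). The other members stood at -0.69 with that library and -0.29 without it for *Slc2a1*, -0.16 and -0.002 for *Hk1*, -0.43 and -0.06 for *Hk2*, -0.04 and 0.05 for *Gpi1*, 0.11 and 0.09 for *Pfkm*, -0.07 and 0.14 for *Pklr*, 0.44 and -0.02 for *Bpgm* and -0.32 and -0.02 for *Ldha*. The controls themselves lay apart, at 345.8 and 583.4 CPM for *Slc2a3*, 370.7 and 570.8 CPM for *Gpi1* and 1182 and 1666 CPM for *Ldha*. KD replicate 2 stood at 350.6, 487.4 and 1409 CPM of these genes, between the controls, and the library labelled KD replicate 1 at 186.5, 429 and 867.2 CPM.

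The hairpins against *Cbfa2t3* differed from each other at an edgeR adjusted p of 0.05 or less for 7 of the 10 members, against 13.7% of all genes. With the size limit added it was 0 members, against 3.71% of all genes. The differences ran from -0.38 (*Pfkp*) to 0.44 log2 units (*Pklr*). *Pfkm*, *Pklr* and *Bpgm* rose further with sh3, which left less *Cbfa2t3*, whereas *Slc2a1*, *Hk1*, *Pfkp* and *Ldha* lay lower with sh3 than with sh2.

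The rest of the pathway was described by lists that also hold the enzymes between the members. Of the other glycolytic enzymes 9 of 14 tested fell in MEL induction and 1 rose, against 14.8% of all genes lower and 12.4% higher, with a median log2 fold change of -1.39 against -0.02 for all genes. The largest falls were those of *Pgam1* (phosphoglycerate mutase, -2.38 ± 0.354, edgeR adjusted p = 0.000443), *Eno2* (an enolase, -2.09 ± 0.414, adjusted p = 0.00277) and *Pkm* (-1.86 ± 0.25, adjusted p = 0.000224). *Pgam2*, the muscle form of phosphoglycerate mutase, was the gene that rose, from 0.4264 to 5.98 CPM on average (log2 3.82 ± 0.7). In *Irf2bp2* KD 7 of 13 fell and 0 rose, against 12.5% and 10.1% of all genes, with a median of -0.52 against -0.01, led by *Pkm*, *Aldoa* (aldolase, -0.94 ± 0.093, edgeR adjusted p = 4.35e-07) and *Eno2* (-0.73 ± 0.102, adjusted p = 1.83e-05). In *Cbfa2t3* KD 1 of 14 was called, near the 5.74% of all genes, *Hkdc1*, which fell from 0.4088 to 0.1302 CPM on average. In *Kdm1a* KD 2 of 14 were past the limit, both higher, *Hkdc1* and *Eno1*, a share near the 13.1% of all genes that were higher. *Eno1* was counted over 0.127 kb and shares reads with near-identical copies, so its value is uncertain.

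Enzymes that regulate glycolysis or handle pyruvate and lactate gave mixed counts, several near the share of all genes. In MEL induction 3 of 20 rose and 5 fell, against 12.4% and 14.8% of all genes. Those that rose were *Txnip* (a brake on glucose uptake, log2 1.92 ± 0.272, edgeR adjusted p = 0.000332), *Pdk2* (a kinase that inhibits pyruvate dehydrogenase, 1.54 ± 0.314) and *Pfkfb4* (1.09 ± 0.302), and *Fbp2*, *Pfkfb1* and the lactate exporter *Slc16a3* (-1.47 ± 0.515, adjusted p = 0.047) led those that fell. In *Cbfa2t3* KD 2 of 20 fell, against 2.75% of all genes, *Fbp2* (-3.01 ± 0.222) and *Txnip* (-0.59 ± 0.066, edgeR adjusted p = 0.000933). In *Irf2bp2* KD 1 rose, *Pfkfb4*, and 3 fell, *Mpc2*, *Pdk1* and *Pdha1*, 4 of 20 against 22.5% of all genes. In *Kdm1a* KD 2 were higher and 6 lower, against 13.1% and 9.8% of all genes, with *Pfkfb1*, *Pdk1* and *Minpp1* lowest. Of the other Slc2a transporters 0 of 6 were called in MEL induction by edgeR, against 27.2% of all genes, while in *Irf2bp2* KD *Slc2a6* rose (log2 1.18 ± 0.123, edgeR adjusted p = 7.57e-07) and *Slc2a5*, *Slc2a8* and *Slc2a9* fell, 4 of 6 against 22.5% of all genes. Of the 17 pentose phosphate and glycogen genes 7 fell in MEL induction (14.8% of all genes), *Pgd* of the oxidative pentose phosphate branch most (-1.76 ± 0.299, edgeR adjusted p = 0.00108), 3 fell and 1 rose in *Irf2bp2* KD (22.5% of all genes called) and 0 were called in *Cbfa2t3* KD (5.74%).

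Some genes of the hypoxia response, many of which share inducers with glycolytic genes, were lower in the 3 comparisons in which *Slc2a1* fell or lay past the fold limit. Not called, however, were 8 of the 16 tested in *Irf2bp2* KD and 9 of the 16 in MEL induction. Of 16 tested, 7 fell and 1 rose in *Irf2bp2* KD, against 12.5% of all genes lower, with *Bnip3* at -1.23 ± 0.109 log2 units (edgeR adjusted p = 1.16e-07). In MEL induction 6 of 16 fell and 1 rose, against 14.8% of all genes lower, with *Ndrg1* at -3.31 ± 0.369 (edgeR adjusted p = 5.61e-05). In *Kdm1a* KD 9 of 16 were lower and 0 higher, against 9.8% of all genes lower, with a median of -0.64 against 0.001 for all genes, *Ankrd37* at -2.30, *Egln3* at -1.58 and *Ndrg1* at -1.52. In *Cbfa2t3* KD 1 of 17 was called, near the 5.74% of all genes, *Egln3*, which rose (1.05 ± 0.135, edgeR adjusted p = 0.00172). Whether this response had a part in the values of the members was not tested.

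**Figure D5:**
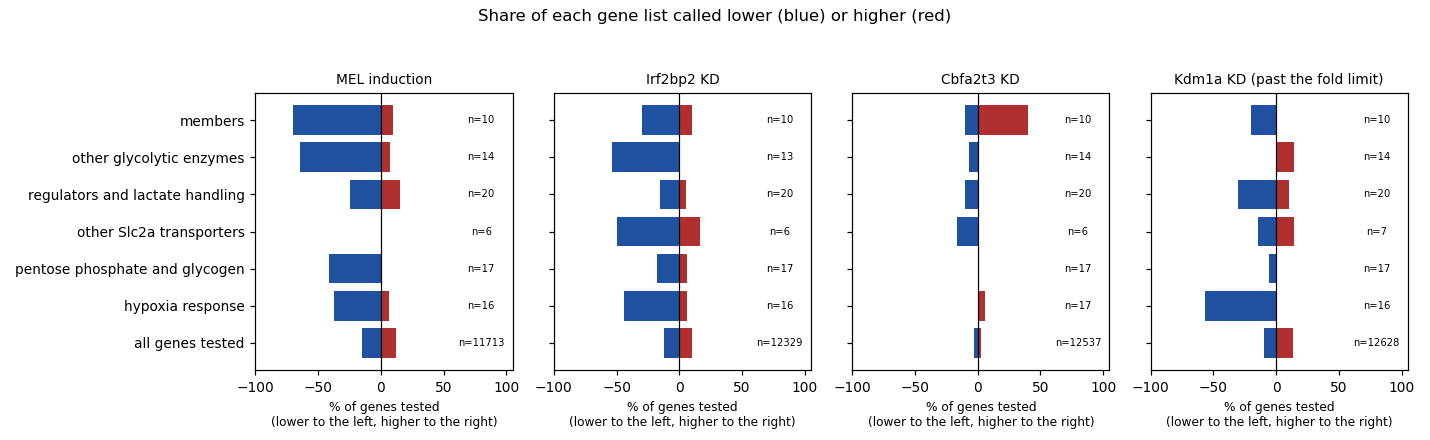
Share of the tested genes of each list that were called lower (left) or higher (right), with all genes tested at the bottom. For *Kdm1a* KD the bars are genes past the fold limit in both KD libraries, with no test. In MEL induction 7 of 10 members and 9 of 14 other glycolytic enzymes fell, against 14.8% of all genes, and in *Cbfa2t3* KD 4 of 10 members and 0 of 14 other glycolytic enzymes rose, against 2.99% of all genes.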

How the data were processed

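RNA-Seq was done by the authors on MEL cells (TruSeq mRNA libraries, HiSeq 2000). Reads were mapped with TopHat2 to mm9 and counted per RefSeq gene with rpkmforgenes. The authors deposited raw counts and RPKM values per library, which were used, and their own log2 fold changes and p-values, which were not. Whether counting used strand is not stated, so antisense reads cannot be told apart. For binding sites the authors deposited an adjusted p-value and a fold, the ratio of ChIP to IgG. The class of a site was read from class sizes, and the list does not say to which factor the fold of a shared site belongs. Sites were assigned to protein-coding genes of the mm9 GENCODE annotation. Another 4 read-number columns, of no single library, were not used.

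The members and lists were chosen with earlier results of these data known. Counts were tested in R 4.3.3 with edgeR 4.0.16 (TMM, filterByExpr, quasi-likelihood test), each table alone, the *Cbfa2t3* hairpins as 1 group, after the script had been tested on simulated data. In *Kdm1a* KD log2 CPM used a prior count of 2. Ratios used log2(RPKM + 0.05) and an exact two-sided permutation test over libraries, in Python 3.11.15. Total counts of 9929311 to 57684583 put a floor of 3 counts at 0.302 CPM or less, far below the members. All 10 members were named. From each list up to 3 called genes per direction were named by size of change, with further called genes named where their count was small, and with *Hk3*, *Pfkl*, *Pkm* and *Ldhb* as family partners; another partner and a marker are not reported here. *Alas2*, *Mpo*, *Elane* and the targeted genes are checks. Alternatives were DESeq2 1.42.0 and its size factors, other filters, no fold limit, the replicate number as a block, single hairpins and leaving out each library.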

Additional observations from a re-analysis of the deposited data

Results flagged for a closer look

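The effects of the hairpins sh2 and sh3 against *Cbfa2t3*, compared by the quasi-likelihood test of edgeR and adjusted over all genes (Benjamini-Hochberg), differed for 7 of 10 members, against 13.7% of all genes. sh3 minus sh2 was -0.34 log2 units for *Slc2a1* (adjusted p = 0.0129), -0.20 for *Hk1* (0.0482), 0.23 for *Pfkm* (0.0211), -0.38 for *Pfkp* (0.0022), 0.44 for *Pklr* (0.000725), 0.40 for *Bpgm* (0.00603) and -0.36 for *Ldha* (0.00348). Against the controls, *Pfkp* stood at 0.33 with sh2 and -0.05 with sh3, and *Ldha* at 0.21 and -0.15. In *Pfkm*, *Pklr* and *Bpgm* both hairpins lay above the controls and sh3 further, at 0.65, 1.13 and 0.83. The cause of these differences was not tested. No group of control or KD libraries had the 4 libraries that a search for outlying values needs, apart from the 4 *Cbfa2t3* KD libraries, where none stood out.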

How the results depend on the processing

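Of 761 values recomputed under alternatives, 697 kept their sign and their side of the threshold or, where there was no test, stayed within the spread between libraries (counts: within 1.5 times), and 31 changed sign. Members called in *Cbfa2t3* KD went from 5 to 3 with sh2 alone, and to between 1 and 5 with a library left out. Without Eto2 WT replicate 1 or replicate 2 *Slc2a3* alone remained, while calls over all genes went from 720 to 279 and 360. Without either sh2 library *Slc2a1* lay under the fold limit (0.491 and 0.483), and without sh3 replicate 1 *Pfkm* lost its call by a margin that rounding hides (0.5). With sh3 alone *Gpi1* was -0.023, *Pfkp* -0.047 and *Ldha* -0.153 log2 units. In *Gfi1b* KD 2 members and 411 of 17067 genes were called with no filter on low counts (0 members and 334 genes when the library labelled KD replicate 1 was left out as well), and 0 to 6 with a library left out. The 6 came without KD replicate 2, where the library labelled KD replicate 1 stood alone and 3148 genes were called. Members called stayed at 4 in *Irf2bp2* KD and 2 in *Kdm1a* KD, and were 7 in MEL induction with any 1 library left out, where calls over all genes ran from 1522 to 3369 against 3187. Where a library was left out its lone partner was assumed to vary like the other groups.

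Values that changed sign with a library left out ran from -0.043 to 0.101 for *Ldha* in *Cbfa2t3* KD, -0.076 to 0.017 for *Hk2* in sh3 against sh2, -0.006 to 0.26 for *Pfkp* and -0.018 to 0.036 for *Pklr* in *Irf2bp2* KD, -0.021 to 0.156 for *Pfkp* and -0.46 to 0.10 for *Pfkm* in MEL induction, and in *Gfi1b* KD -1.26 to 0.16 for *Slc2a1*, -0.32 to 0.29 for *Gpi1*, -0.37 to 0.30 for *Pklr* and -0.021 to 0.753 for *Bpgm*. *Pfkp* in *Kdm1a* KD ran from -0.135 to 0.095. Changes of log2 ratio that did so ran from -0.132 to 0.032 for *Hk2*/*Hk1* in *Kdm1a* KD, -0.061 to 0.222 for *Pfkp*/*Pfkm* in *Irf2bp2* KD, and, for *Slc2a3*/*Slc2a1*, -0.533 to 0.121 in *Gfi1b* KD and -0.777 to 0.995 in MEL induction. In settings chosen after seeing the data, without the library labelled *Gfi1b* KD replicate 1, *Gpi1*, *Pklr* and *Bpgm* were 0.045, 0.138 and -0.025 with DESeq2 and 0.035, 0.129 and -0.037 with no filter on low counts. The cause was not tested.

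Replicates share only a number. Same-numbered libraries deviated together with r of 0.118 to 0.252 in *Cbfa2t3* KD, 0.025 in *Irf2bp2* KD, 0.002 in *Gfi1b* KD and 0.196 in MEL induction. With the replicate block 5, 4, 0 and 8 members were called in these comparisons and 0 between the hairpins, as without it. Members with a binding site remained 9 within 100 kb or within 20 kb of the gene body and were 7 at or above the median fold.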
